A study of Mus musculus with 11 samples.

Results

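The genes described here encode the constitutive proteasome, and 34 of the 11366 genes of the deposited table belong to them. A gene was taken when its symbol began with Psma, Psmb, Psmc or Psmd followed by a number, and Psmb8, Psmb9 and Psmb10, the catalytic subunits that interferon gamma induces, were left out. The 34 were 14 genes of the 20S core, 17 of the 19S regulatory particle and 3 assembly chaperones, Psmd5, Psmd9 and Psmd10, which leave the complex before it is mature. Every one of the 34 passed the filter on low values (at least 1 RPKM, reads scaled to gene length and to the library's reads, in at least 3 libraries). The RNA came from wild-type mice: 3 Control libraries from animals on standard chow, 4 NFF libraries from animals on a chow low in fermentable fiber, and 4 SFB libraries from animals on standard chow that had been colonized with SFB, segmented filamentous bacteria in this field's usage. All were small-intestinal epithelial cells sorted as live and EpCAM-positive without CD45, CD31 or CD44, and no age is stated. Nothing in the labels says whether each library was a separate animal or a pool. The p-values set a difference between groups against the spread between these libraries, and that spread may be technical.

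The proteasome degrades proteins that carry ubiquitin chains. Its 20S core is a barrel in which an outer ring of alpha subunits controls entry and an inner ring of beta subunits cuts, with 3 of the beta subunits catalytic: Psmb6 (caspase-like), Psmb7 (trypsin-like) and Psmb5 (chymotrypsin-like). The 19S particle caps the barrel: its base of ATPases (Psmc genes) unfolds the substrate, and its lid removes ubiquitin and braces the complex. In cells that answer interferon gamma, Psmb9, Psmb10 and Psmb8 take the places of Psmb6, Psmb7 and Psmb5, and the altered core makes many of the peptides shown on MHC class I. Proteasome genes are known to be transcribed together, in part through NRF1 (Nfe2l1), which binds antioxidant response elements when proteasome activity falls.

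Promoters are shown for the catalytic subunits Psmb5 and Psmb6, and for Psma1, Psmd14, Psmc1 and Psmd11, which are members of the core, the base and the lid that differed between SFB and NFF. RefSeq gave promoters (250 bases before to 50 after the start, GRCm38.p6) for 28 of the 34 members, and Psmb1, Psmb2, Psmb7, Psmc3, Psmd3 and Psmd7 had no entry. Capitals mark 3 motifs, searched on both strands: the antioxidant response core TGACNNNGC, the NF-Y box CCAAT and the ETS-family core CCGGAAG, the last chosen after the promoters had been seen. Where 2 copies of CCAAT overlap, as in Psmd14 just after the start, both are in the same run of capitals. The windows are chr14:54617946-54618245 (minus strand, Psmb5), chr11:70525107-70525406 (plus strand, Psmb6), chr7:114276067-114276366 (minus strand, Psma1), chr2:61711444-61711743 (plus strand, Psmd14), chr12:100109952-100110251 (plus strand, Psmc1) and chr11:80428365-80428664 (plus strand, Psmd11).
Psmb5: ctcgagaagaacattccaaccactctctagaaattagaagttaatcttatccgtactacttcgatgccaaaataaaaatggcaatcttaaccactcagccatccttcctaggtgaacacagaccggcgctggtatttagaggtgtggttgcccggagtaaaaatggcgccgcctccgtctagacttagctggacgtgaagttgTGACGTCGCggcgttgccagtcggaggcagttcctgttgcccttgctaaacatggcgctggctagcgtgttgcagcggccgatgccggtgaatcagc
Psmb6: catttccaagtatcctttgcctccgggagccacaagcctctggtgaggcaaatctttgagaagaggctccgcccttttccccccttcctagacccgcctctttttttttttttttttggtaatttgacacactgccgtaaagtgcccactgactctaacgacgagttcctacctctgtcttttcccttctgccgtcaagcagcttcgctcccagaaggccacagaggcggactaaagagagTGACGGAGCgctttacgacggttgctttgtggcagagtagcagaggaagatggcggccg
Psma1: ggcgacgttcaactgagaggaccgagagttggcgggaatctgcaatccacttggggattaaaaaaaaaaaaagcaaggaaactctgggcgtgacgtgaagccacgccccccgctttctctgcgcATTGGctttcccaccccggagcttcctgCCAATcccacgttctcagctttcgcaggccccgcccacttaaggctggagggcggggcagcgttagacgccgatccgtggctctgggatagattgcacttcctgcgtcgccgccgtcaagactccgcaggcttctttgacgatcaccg
Psmd14: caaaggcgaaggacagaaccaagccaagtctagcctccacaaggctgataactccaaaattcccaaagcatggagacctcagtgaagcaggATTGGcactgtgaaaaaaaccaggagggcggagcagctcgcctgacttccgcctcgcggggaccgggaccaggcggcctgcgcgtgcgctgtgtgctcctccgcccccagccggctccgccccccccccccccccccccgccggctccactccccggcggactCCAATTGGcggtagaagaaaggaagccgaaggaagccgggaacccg
Psmc1: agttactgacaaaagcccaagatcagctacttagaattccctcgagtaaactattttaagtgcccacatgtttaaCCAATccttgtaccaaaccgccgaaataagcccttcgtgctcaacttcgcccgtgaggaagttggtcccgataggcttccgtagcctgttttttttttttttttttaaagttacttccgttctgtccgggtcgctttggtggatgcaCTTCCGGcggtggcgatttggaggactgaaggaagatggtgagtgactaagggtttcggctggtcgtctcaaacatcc
Psmd11: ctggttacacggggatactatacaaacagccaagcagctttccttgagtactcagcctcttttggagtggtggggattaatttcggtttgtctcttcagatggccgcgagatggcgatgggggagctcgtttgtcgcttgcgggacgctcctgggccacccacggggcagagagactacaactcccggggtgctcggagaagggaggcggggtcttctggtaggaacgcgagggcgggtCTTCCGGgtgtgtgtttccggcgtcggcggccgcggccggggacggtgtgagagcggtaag

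The antioxidant core stood at position -47 in Psmb5 and -9 in Psmb6, counted from the start at 0. It was also in the promoters of Psmc6, Psmd9 and Psmd12, and thus in 5 of 30 member promoters (16.7%), against 12.4% of all 32851 promoters and 14.4% of those of genes in the table. CCAAT was in 11 of 30 (36.7%), against 37.4% of all promoters and 38.2% of those of genes in the table. Both shares lay near their background. CCGGAAG was in 11 of 30 (36.7%), against 8.86% and 18.1%. It was chosen after these promoters had been seen, so its gap to the background is not a test. Among the members shown CCGGAAG stood at -28 in Psmc1 and -11 in Psmd11. The 30 promoters belong to 28 genes, so a gene with several promoters is counted for each. Psmd1, the member with the lowest p between SFB and NFF, held none of the 3 in its window. These matches describe letters and not occupied sites.

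The members were abundant transcripts. Mean levels over the 11 libraries ran from 6.18 RPKM for the chaperone Psmd9 to 116 RPKM for Psmb2, a structural beta subunit, with a median of 35.5, against a median of 5.45 over all genes of the table. RPKM is scaled for length, but the gene lengths used are not given, so comparisons of level between genes are approximate. Core subunits were the highest groups, with medians of 49.3 RPKM for the alpha ring, 68.4 for the structural beta subunits and 67.3 for the catalytic ones. The base ATPases had a median of 35.6, the other base subunits 34.0, the lid 27.6 and the assembly chaperones 7.73. Genes whose products stand in equal number in the complex did not have equal RPKM. In the alpha ring they ranged from 33.7 (Psma3) to 93.5 RPKM (Psma6), and in the lid from 13.8 (Psmd11) to 71.3 (Psmd7).

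**Figure D1:**
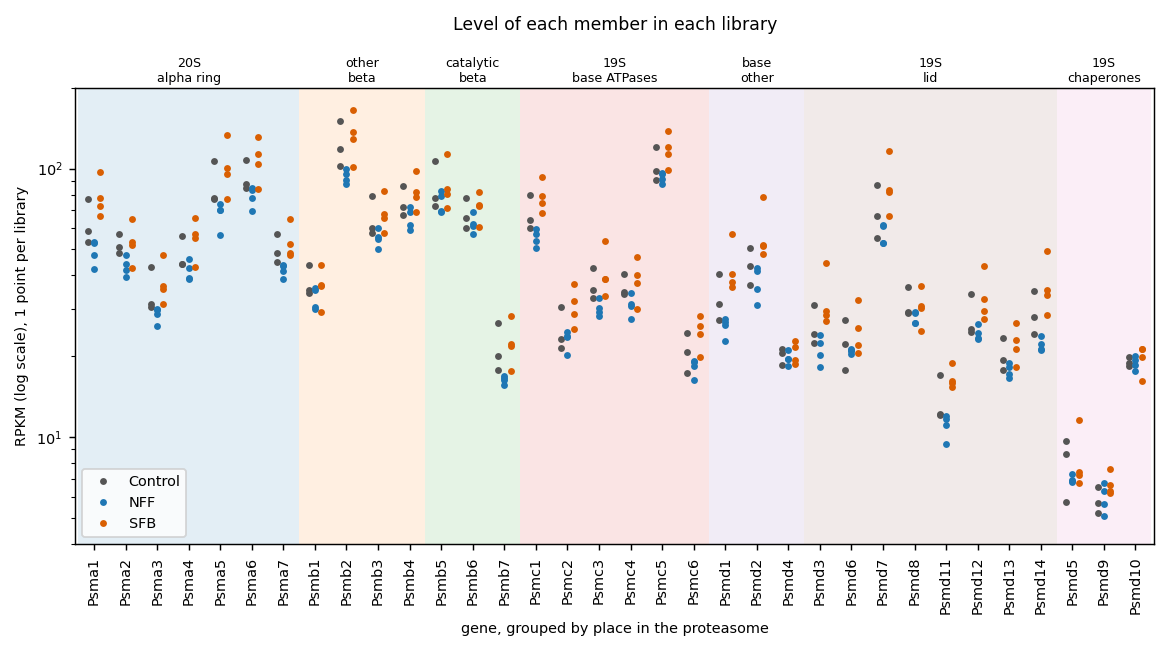
RPKM of the 34 members (vertical axis, log scale) with 1 point per library, genes grouped by their place in the proteasome (horizontal axis) and groups by colour. The chaperones Psmd5 and Psmd9 are the lowest, between 5.08 and 11.6 RPKM, and Psmb2 and Psmc5 have the highest means (116 and 105 RPKM).

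Among the catalytic subunits Psmb5 stood at 78.0, 107 and 72.7 RPKM in Control, at 69.7, 68.7, 78.7 and 82.3 in NFF, and at 84.0, 80.2, 71.3 and 113 in SFB (replicates in the order of their labels, here and in the next values: Control 2, 4 and 5, NFF 1 to 4, SFB 1 to 4). Psmb6 stood at 65.6, 77.9 and 60.2 in Control, at 62.0, 57.2, 61.1 and 69.1 in NFF, and at 72.3, 73.0, 60.6 and 81.9 in SFB. In both genes the 3 groups overlapped. Psmb7, lower than Psmb5 (means of 19.9 and 82.3 RPKM over all libraries), stood at 17.8, 26.5 and 20.01 in Control, at 16.8, 15.6, 16.3 and 16.7 in NFF, and at 21.8, 22.2, 17.6 and 28.1 in SFB, so that every NFF library was below every library of the other groups.

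Psmb2, a beta subunit with no catalytic site, stood at 102, 151 and 118 RPKM in Control, at 91.0, 87.4, 99.9 and 95.6 in NFF, and at 129, 137, 102 and 165 in SFB. Its NFF libraries were below all others, by less than 3 RPKM for the nearest. Psma1, an alpha ring subunit, stood at 53.2, 76.96 and 58.8 in Control, at 52.7, 42.2, 53.5 and 47.7 in NFF, and at 72.7, 77.6, 66.7 and 97.2 in SFB. All SFB libraries of Psma1 exceeded all NFF libraries, and Control 4 lay within the SFB range.

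In the base, the ATPase gene Psmc1 stood at 59.9, 79.5 and 64.6 RPKM in Control, at 57.2, 50.8, 59.4 and 53.7 in NFF, and at 74.4, 79.0, 68.4 and 92.8 in SFB. Psmd1, the large scaffold of the base, stood at 27.4, 40.5 and 31.2 in Control, at 27.4, 26.9, 26.1 and 22.7 in NFF, and at 40.5, 37.9, 36.3 and 56.9 in SFB. Both genes separated SFB from NFF in every library. Psmd2, the other scaffold of the base and a docking site for ubiquitin shuttles, stood at 36.7, 50.5 and 43.5 in Control, at 41.5, 35.6, 42.6 and 31.1 in NFF, and at 52.0, 51.3, 48.0 and 78.1 in SFB.

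In the lid, Psmd14, the deubiquitinase that cuts ubiquitin chains from the substrate, stood at 24.2, 35.0 and 28.1 RPKM in Control, at 22.1, 21.0, 23.8 and 21.2 in NFF, and at 35.4, 33.9, 28.5 and 49.2 in SFB. Psmd11, a lid subunit that touches both base and core, stood at 12.2, 16.97 and 12.1 in Control, at 11.9, 11.1, 11.6 and 9.40 in NFF, and at 15.9, 16.2, 15.4 and 18.9 in SFB. In both genes NFF lay below Control and SFB without overlap. Psmd9, a chaperone of base assembly and the lowest member, stood at 5.20, 6.54 and 5.70 in Control, at 5.08, 6.31, 5.62 and 6.78 in NFF, and at 6.33, 6.66, 6.18 and 7.62 in SFB, with all groups overlapping.

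The highest and lowest values of the members mostly fell in the same few libraries. SFB 4 held the highest value of 33 of the 34, the exception being Psmb1 in Control 4, and NFF 2 held the lowest value of 21. Within Control the highest value of 33 members was in Control 4, and within SFB the lowest value of 33 was in SFB 3. These counts were not made over all genes, so no background share stands beside them. The summed RPKM of the 20S members was 820, 1075 and 823 in Control, 741, 680, 791 and 792 in NFF, and 955, 984, 800 and 1217 in SFB. That of the 19S members was 545, 741 and 596, then 558, 507, 564 and 513, then 698, 718, 608 and 924. The 19S sum divided by the 20S sum was 0.693 ± 0.0299 (mean ± SD) over the 3 Control libraries, 0.715 ± 0.0481 over the 4 NFF libraries and 0.745 ± 0.0169 over the 4 SFB libraries.

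The widest range was in Psmd2, whose highest library was 2.51 times its lowest, and the narrowest in Psmd4, the ubiquitin receptor of the base, at 1.24 times. Psmd4 also had the smallest spread within groups (SD 0.11 on the log2 scale, pooled over the 3 groups), against 0.27 in the lid gene Psmd7. The assembly chaperone Psmd10, a binding partner of the base ATPases, was nearly as steady (SD 0.12).

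**Figure D2:**
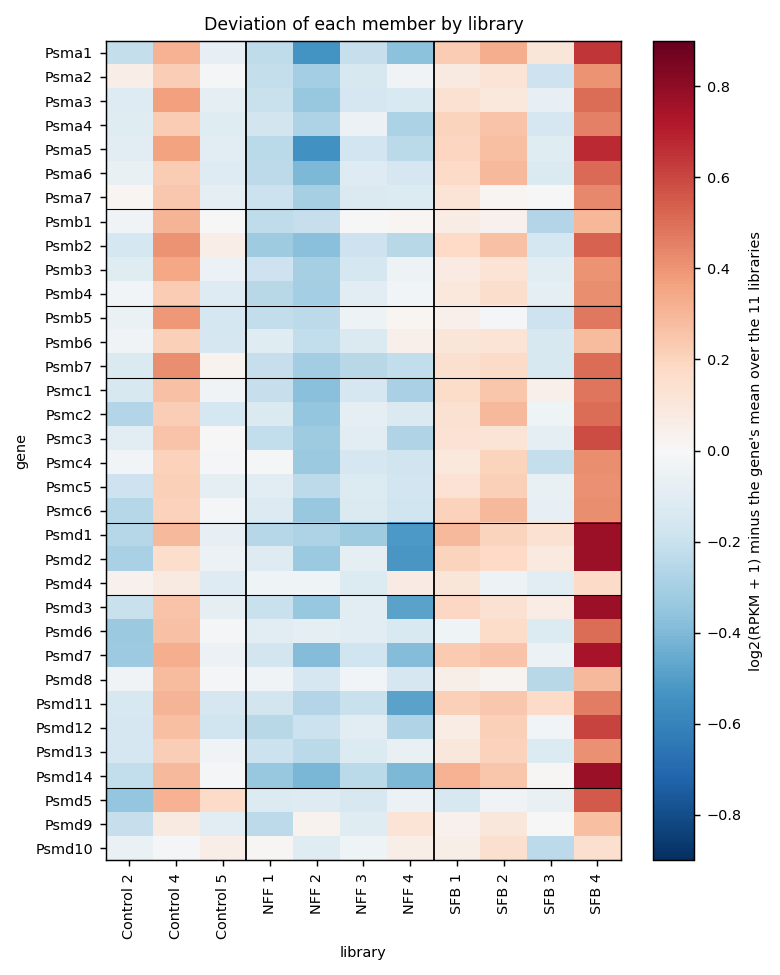
Deviation of each of the 34 members (rows, by place in the complex) in each of the 11 libraries (columns), in log2(RPKM + 1) minus the gene's mean over all libraries, with black vertical lines between Control, NFF and SFB. SFB 4 and Control 4 are red in nearly every row, the NFF columns are mostly blue, and Psmd4 and Psmd10 are pale throughout.

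Features of the libraries are given here beside these levels, and no association between them was computed. Depth is unknown, since the table holds RPKM, and the RPKM of a library summed to between 237248 (SFB 4) and 302661 (Control 2). The sort matched its label for epithelium (5 of 5 markers present, summing to 4012 to 5677 RPKM), while Cd3e, Cd8a, Kdr, Cdh5, Col1a1, Col3a1 and Dcn were not listed in the table. The leukocyte markers Ptprc and Itgam summed to 2.54 to 6.19 RPKM in Control, 3.60 to 5.06 in NFF and 6.12 to 12.9 in SFB, where against NFF Itgam was called higher (1.41) and Ptprc, not called, stood at -0.69 (limma adjusted p = 0.107). The 7 crypt and dividing-cell markers (Lgr5, Olfm4, Mki67, Top2a, Pcna, Ccnb1 and Cd44) summed to 24.3 to 75.5 RPKM in Control, 20.4 to 29.5 in NFF and 44.1 to 184 in SFB, none at 0. Of these, 2 were called higher in SFB than in NFF, against 3.14% of all genes. The mean log2 level of Mki67, Top2a, Pcna and Ccnb1 was highest in Control 4 among Control libraries (3.47) and in SFB 4 among SFB libraries (4.37), as the members were, but SFB 3, with the lowest members in SFB, was second there at 3.08. Their part in the members' levels was not tested, and a fit with these genes as a covariate is given below. The 5 absorptive enterocyte markers summed to 1572 to 5783 RPKM in Control, 2893 to 3734 in NFF and 617 to 2945 in SFB, the tuft markers Dclk1 and Trpm5 to 8.83 to 19.5, 18.3 to 30.2 and 1.02 to 6.82, and the enteroendocrine markers Chga and Chgb to 144 to 931, 271 to 633 and 73.5 to 163. The goblet markers Muc2, Tff3 and Clca1 summed to 3406 to 5718, 2942 to 8089 and 1686 to 4125 RPKM, and the Paneth markers Lyz1, Defa24 and Ang4 to 7822 to 14080, 6810 to 10430 and 240 to 7888. In sorted bulk cells a change in the make-up of the cells and a change of RNA per cell cannot be told apart.

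The comparison of NFF with Control asks whether a chow low in fermentable fiber was accompanied by a change in the proteasome genes. Proteasome RNA stood lower in NFF in 33 of 34 members, but no difference passed the test against the spread between libraries. Limma on log2(RPKM + 1), with Benjamini-Hochberg adjustment over 10482 genes, called 0 of the 34 members and 0 genes in all (percent called 0), and 0 of the 34 had an unadjusted p under 0.05, against 4.82% of all genes. The median log2 fold change of the members was -0.22, against -0.01 over all tested genes, and values below 0 made up 51.7% of all genes. The NFF and Control libraries of 10 members did not overlap, all 10 lower in NFF, against 4.42% of all genes lower without overlap.

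No member was higher without overlap, against 5.35% of all genes. Values above 0 were in 1 of 34 members, against 48.3% of all genes. By role, the median log2 fold change in NFF against Control was -0.26 in the alpha ring, -0.21 in the structural beta subunits, -0.18 in the catalytic ones, -0.20 in the base ATPases, -0.22 in the lid and -0.01 in the assembly chaperones. The 4 members of lowest unadjusted p were Psmb7 (-0.35 ± 0.16 SE, 95% interval -0.71 to 0.00), Psmb2 (-0.38 ± 0.18), Psmd14 (-0.37 ± 0.175) and Psma1 (-0.34 ± 0.17), each with a limma adjusted p of 0.896. Psmb7 went from 21.4 ± 4.53 RPKM (mean ± SD over 3 Control libraries) to 16.4 ± 0.549 (4 NFF libraries), and Psmb2 from 124 ± 24.7 to 93.4 ± 5.45. For Psmb5 the interval was -0.57 to 0.21 and for Psmb6 -0.42 to 0.19. The exception, the chaperone Psmd9, stood at 0.03, and at -0.03 without NFF 4. Without Control 4, the Control library with the highest crypt and dividing-cell sum, the members' median was -0.09, and with the level of Mki67, Top2a, Pcna and Ccnb1 as a covariate it was -0.08.

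The comparison of SFB with Control, both on standard chow, asks what colonization was accompanied by. No member changed by the test, and most values lay above 0 in both particles (13 of 14 in the 20S core and 16 of 17 in the 19S particle). Limma called 0 of 34 members, against 21 of 10482 genes (percent called 0.2), and 0 members had an unadjusted p under 0.05, against 12.1% of all genes. Values were above 0 in 32 of 34 members, against 52.5% of all genes, and below 0 in 2 (Psmb1 and Psmd8), against 47.5%, with a median of 0.15 against 0.01 over all genes. No member separated the groups without overlap, against 3.66% of all genes higher and 6.05% lower in SFB without overlap. With array weights, in a fit whose weights did not converge fully, limma called 4 of 34 members (Psmd1, Psmd5, Psmd11 and Psmd14) and 1948 of 10482 genes.

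The median log2 fold change in SFB against Control was 0.36 in the base subunits without ATPase activity, 0.25 in the lid and 0.20 in the base ATPases, against 0.19 in the alpha ring and 0.06 in the catalytic beta subunits. The members of lowest unadjusted p were Psmd1 (0.36 ± 0.17 SE, limma adjusted p = 0.435), Psmd2 (0.37 ± 0.19, 0.457), Psma1 (0.32 ± 0.17, 0.478) and Psmd11 (0.27 ± 0.14, 0.478). Psmd1 averaged 33.0 ± 6.73 RPKM over 3 Control libraries and 42.9 ± 9.46 over 4 SFB libraries (± SD). The catalytic subunits lay near 0, with 95% intervals of -0.37 to 0.41 for Psmb5, -0.22 to 0.38 for Psmb6 and -0.29 to 0.42 for Psmb7, and Psmb5 and Psmb7 turned to below 0 without SFB 4 (-0.11 and -0.05). The members' median was 0.04 without SFB 4, and it turned to -0.05, with 9 of 34 above 0, without the 3 libraries farthest from their group means (SFB 4, SFB 2 and Control 2). Scaling each library by its summed RPKM moved the median of all genes to 0.20 and that of the members to 0.35, with 34 of 34 above 0.

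**Figure D3:**
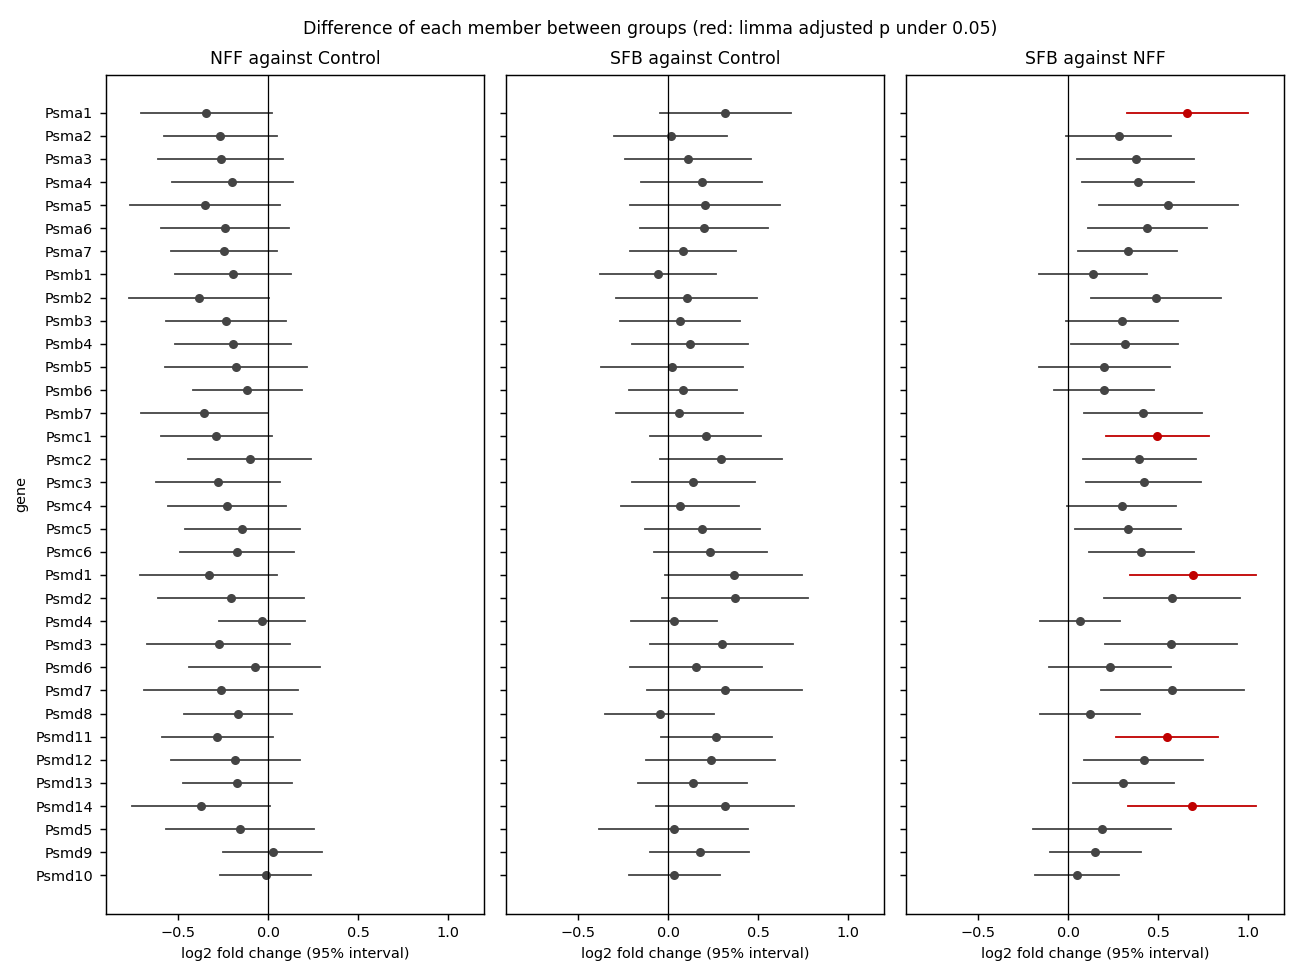
Log2 fold change on log2(RPKM + 1) with its 95% interval (horizontal axis) for each of the 34 members (vertical axis) in the 3 comparisons, red where the limma adjusted p is under 0.05. In the first 2 panels no member is red, and in SFB against NFF every point is above 0 and 5 are red.

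The most members were called between SFB and NFF, a comparison where diet and colonization both differ and cannot be told apart, and which shares its libraries with the other 2. All 34 members stood higher in SFB (52.7% of all genes did, and 47.3% stood lower) and 5 rose by the test: the scaffold Psmd1, the alpha subunit Psma1, the lid deubiquitinase Psmd14, the lid subunit Psmd11 and the base ATPase Psmc1. Limma called 769 of 10482 genes (7.34%), 329 of them higher (3.14%), so that 5 of 34 called higher stood against 3.14% of all genes. An unadjusted p under 0.05 was reached by 22 of 34 members, against 25.7% of all genes, and the libraries of 18 of 34 members did not overlap, all higher in SFB, against 10.1% of all genes higher and 9.91% lower without overlap. The members' median log2 fold change was 0.38, against 0.02 over all genes.

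Psmd1 (chromosome 1, 86064387 to 86139151, GRCm38, plus strand) rose from 25.8 ± 2.12 to 42.9 ± 9.46 RPKM (mean ± SD over 4 libraries each, as below), by 0.69 ± 0.16 (SE) in log2 units, with an adjusted p of 0.0264 by limma. Psma1 (chromosome 7, 114264606 to 114276118, minus strand) went from 49.0 ± 5.21 to 78.6 ± 13.2 RPKM, by 0.66 ± 0.15 (limma adjusted p = 0.0272). Psmd14 (chromosome 2, 61711694 to 61800376, plus strand) went from 22.0 ± 1.24 to 36.8 ± 8.79 RPKM, by 0.69 ± 0.16 (limma adjusted p = 0.0277). In these 3 genes the lowest SFB library was above the highest NFF library. Psmd11 (chromosome 11, 80428615 to 80473248, plus strand) went from 11.03 ± 1.14 to 16.6 ± 1.60 RPKM, by 0.55 ± 0.13 (limma adjusted p = 0.0279), and Psmc1 (chromosome 12, 100110154 to 100123405, plus strand) from 55.3 ± 3.79 to 78.6 ± 10.4 RPKM, by 0.49 ± 0.13 (0.0418).

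**Figure D4:**
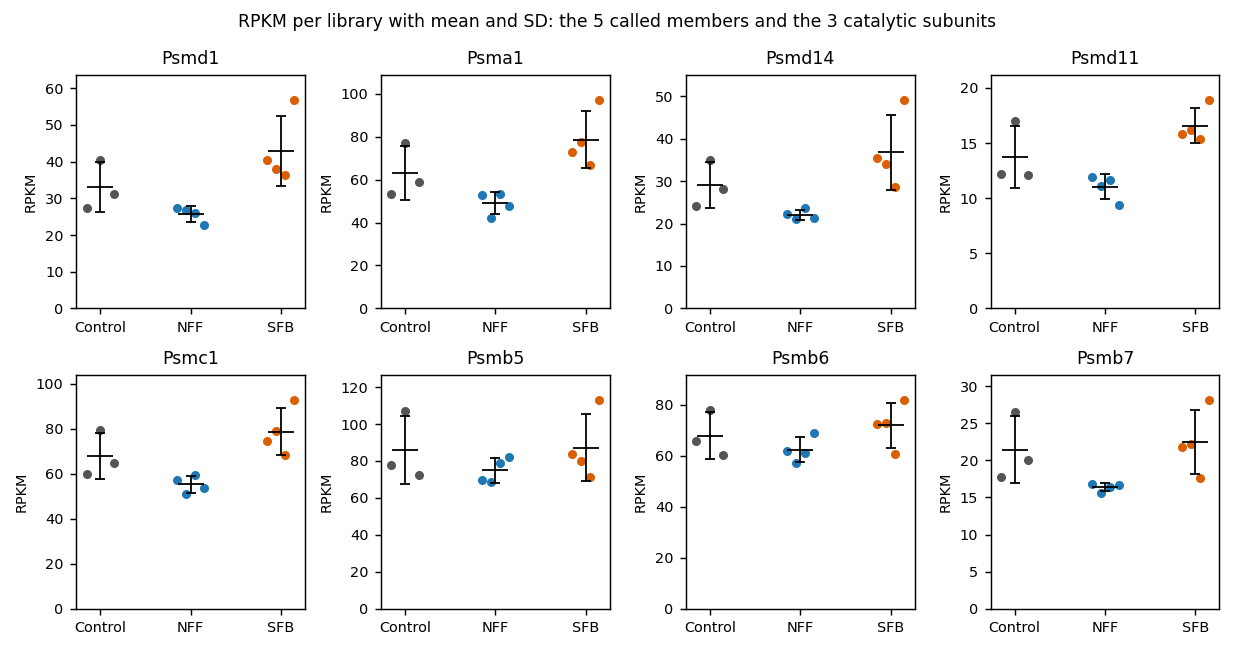
RPKM per library (points), group mean (horizontal bar) and SD (whiskers) of the 5 members called between SFB and NFF and of the 3 constitutive catalytic subunits; every vertical axis starts at 0. In the first 5 panels the lowest SFB point is above the highest NFF point, and in Psmb5 and Psmb6 the groups overlap.

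The members that passed were counted by role, against 3.14% of all genes called higher and 25.7% at an unadjusted p under 0.05. In the 19S particle 4 of 17 rose and 13 had an unadjusted p under 0.05, with medians of 0.58 in the non-ATPase base, 0.48 in the lid and 0.40 in the base ATPases. In the 20S core 1 of 14 rose and 9 had an unadjusted p under 0.05, with medians of 0.39 in the alpha ring, 0.31 in the structural beta subunits and 0.20 in the catalytic ones. Whether the 2 particles differ in this was not tested. The catalytic subunits were not called: Psmb7 differed by 0.42 (95% interval 0.09 to 0.74, limma adjusted p = 0.113), Psmb5 by 0.20 (-0.17 to 0.56, 0.478) and Psmb6 by 0.20 (-0.08 to 0.48, 0.352). Psmb2 differed by 0.49 (limma adjusted p = 0.0953) and Psmd2 by 0.58 (0.0637). The smallest differences were in the chaperone Psmd10 (0.05) and the ubiquitin receptor Psmd4 (0.06), and 0 of the 3 assembly chaperones had an unadjusted p under 0.05.

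The 5 calls were close to the threshold and depended on single libraries. No member was called without NFF 2, without NFF 3 or without NFF 4 (smallest limma adjusted p for these 5 genes 0.0722, 0.0502 and 0.0761), although the 5 log2 fold changes stayed between 0.46 and 0.72. Leaving out SFB 1 kept 1 of the 5, Psma1, NFF 1 kept 3, and Control 5, SFB 2 or SFB 4 kept 4. Without SFB 4 the differences were 0.55 for Psmd1, 0.55 for Psma1, 0.54 for Psmd14, 0.49 for Psmd11 and 0.41 for Psmc1. Quantile normalization raised the number called to 18, and scaling by the summed RPKM to 8, each including the 5. A replicate block, although no label ties equal numbers together, left 0 called. The crypt and dividing-cell markers moved in the same direction: 7 of 7 stood higher in SFB than in NFF, against 52.7% of all genes. Of these, 2 were called (Olfm4 by 3.00 and Cd44 by 0.80), against 3.14% of all genes called higher. Markers of other cell types were called too, Itgam higher and Dclk1 (-1.72), Trpm5 (-2.67), Chga (-1.87), Chgb (-2.09) and Sis (-1.27) lower. Over all genes limma called 7.34% in either direction. Cd44, in cells sorted without CD44, was near the filter, at 0.333 to 0.646 RPKM in NFF and 1.17 to 2.29 in SFB. Mki67, Top2a, Pcna and Ccnb1 were not called. With the level of Mki67, Top2a, Pcna and Ccnb1 as a covariate, a fit chosen after seeing the data, 0 members were called and the median was 0.13, with Psmd1 at 0.33 (limma adjusted p = 0.156). That mean log2 level ran from 1.81 to 2.45 in NFF and from 2.47 to 4.37 in SFB, without overlap. This fit therefore cannot tell the covariate from the group.

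Other genes of the pathway were taken from lists by role. Most were uncalled between SFB and NFF, as were most genes of the table, of which 7.34% were called. Of the 6 activators and inhibitors, 2 rose, against 3.14% of all genes: Psme1 (0.44, limma adjusted p = 0.0484) and Psme2 (0.61, 0.0277), the subunits of the PA28 cap that interferon gamma induces. Psme2 and its near copy Psme2b (0.58, 0.0661) could have shared reads. Psme3, Psme4 and the inhibitor Psmf1 were not called. None of the 2 further 19S subunits, of the 5 tested core assembly factors or of the 15 tested ubiquitin receptors, shuttles and proteasome-bound enzymes was called by limma. In these lists 1, 1 and 3 genes had an unadjusted p under 0.05, against 25.7% of all genes. Adrm1, a ubiquitin receptor of the base, stood at 0.28 (limma adjusted p = 0.130) and Sem1, a small lid subunit, at 0.02 (0.921). Pomp, the core maturation factor, stood at 0.30 (limma adjusted p = 0.129) and Psmg3, a chaperone of core assembly, at 0.46 (0.319). Usp14, a deubiquitinase bound to the base, stood at 0.58 (limma adjusted p = 0.0736) and the unfoldase Vcp at 0.39 (0.1425).

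In the NRF1 route 1 of 8 genes was called, against 7.34% of all genes. Mafg, a small Maf partner of NRF1 and NRF2, fell by 0.55 on the log2 scale in SFB against NFF (limma adjusted p = 0.0248), while Nfe2l1 itself stood at 0.18 (0.570) and Nfe2l2, which encodes NRF2, at -0.32 (0.2125). Of 4 ubiquitin genes and the activating enzyme Uba1, 0 were called by limma and 0 had an unadjusted p under 0.05. Over all genes these shares were 7.34% and 25.7%. Uba1 stood at 0.16 (limma adjusted p = 0.424). In NFF against Control and in SFB against Control limma called 0 genes of every one of these lists, against 0% and 0.2% of all genes. At an unadjusted p under 0.05 stood Psme2 (-0.34) and Ngly1, the glycanase that activates NRF1 (-0.25), in NFF, and Nfe2l2 (-0.44) in SFB. Of all genes, 4.82% and 12.1% did in these comparisons. The induced catalytic subunits are given below.

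The ratio of each constitutive catalytic subunit to its induced counterpart was taken within a library. In the RPKM ratios of this paragraph the scaling of the library cancels. The log2 ratios tested below had 1 added to each RPKM, so there the scaling does not cancel fully, and they are not the log2 of these RPKM ratios. Psmb6 over Psmb9 was 3.86 to 5.23 in Control, 6.74 to 10.99 in NFF and 2.14 to 3.16 in SFB, without overlap between any of the groups. Psmb5 over Psmb8 was 1.68 to 2.73 in Control, 3.68 to 6.13 in NFF and 0.988 to 1.64 in SFB, again without overlap. Psmb7 over Psmb10 was 0.212 to 0.361, 0.276 to 0.344 and 0.237 to 0.370, so that the induced subunit had the higher RPKM of this pair in every library.

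Between SFB and NFF the log2 ratio differed by -1.51 for Psmb6 over Psmb9 and by -1.73 for Psmb5 over Psmb8 (two-sided exact permutation p = 0.0286 for each, the smallest that these group sizes allow, and 0.0514 after adjustment over the 9 tests). Against Control, NFF differed by 0.76 and 0.91 (exact permutation p = 0.0286 for each, adjusted 0.0514) and SFB by -0.76 and -0.82 (exact permutation p = 0.0286 and 0.0571, adjusted 0.0514 and 0.0857). None of these passed an adjusted threshold of 0.05, which a single test at the smallest possible p cannot reach over 9 tests. For Psmb7 over Psmb10 the differences were 0.01, -0.09 and -0.09 in NFF against Control, SFB against Control and SFB against NFF (exact permutation p = 0.971, 0.743 and 0.543). Of the induced genes, between SFB and NFF limma called Psmb8 (1.92, adjusted p = 8e-04) and Psmb9 (1.71, 0.0012) but not Psmb10 (0.51, 0.0774). In NFF against Control, Psmb8 stood at -1.09 (limma adjusted p = 0.519), Psmb9 at -0.87 (0.566) and Psmb10 at -0.36 (0.896). In SFB against Control they stood at 0.84 (limma adjusted p = 0.150), 0.84 (0.143) and 0.15 (0.798). None was called against Control, and Psmb8 and Psmb9 had an unadjusted p under 0.05 in both comparisons.

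**Figure D5:**
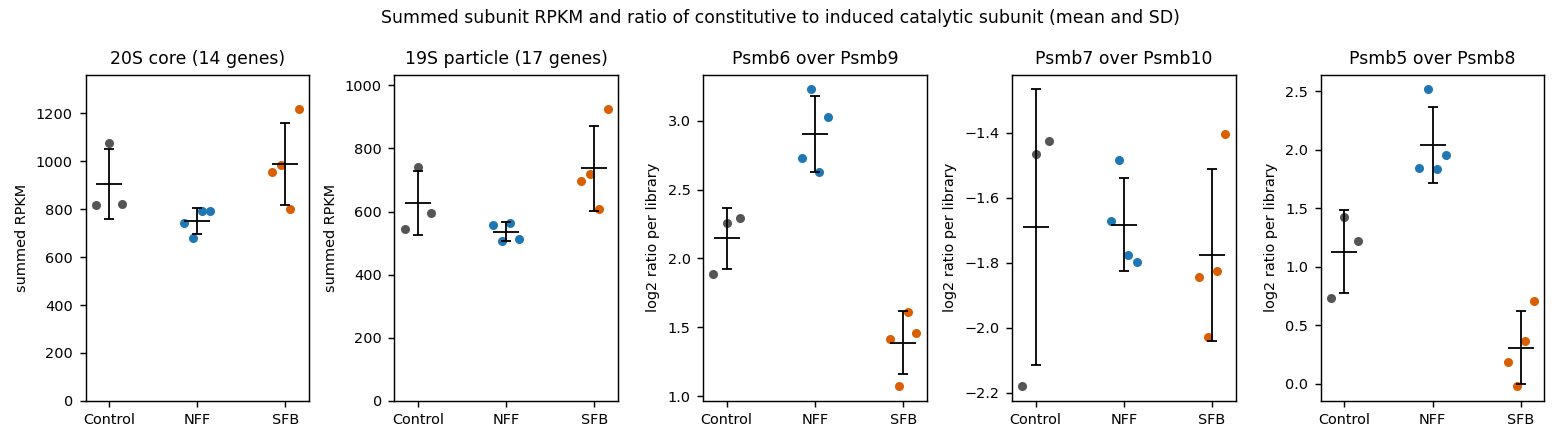
Summed RPKM of the 14 genes of the 20S core and the 17 of the 19S particle (vertical axes from 0), with 1 point per library, mean and SD. The last 3 panels show in the same way the log2 ratio of constitutive over induced catalytic subunit, with 1 added to each RPKM. The Psmb6 over Psmb9 and Psmb5 over Psmb8 panels separate the 3 groups, and the Psmb7 over Psmb10 panel does not.

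Reads of some members could be shared with other genes, since the libraries do not mark strand. In GENCODE M21 (GRCm38) 7 of the 34 overlap another gene of the table: Psma2 overlaps AW209491 on the same strand over 8943 bases, Psma3, Psmb7, Psmc3, Psmd9 and Psmd13 overlap 3110056K07Rik, Nek6, Slc39a13, Hpd and Sirt3 on the opposite strand, and Psmd5 overlaps Cutal. None of the 5 members called between SFB and NFF is among them, but some overlap genes outside the table. Psmd1 overlaps the protein-coding genes Gm21972 (same strand, 5515 bases) and Htr2b (opposite strand, 12945 bases). Psmd14 overlaps Gm25966 on the same strand over 117 bases. Processed copies of proteasome genes elsewhere in the genome were not examined.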

How the data were processed

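The labels describe total RNA from sorted cells, cDNA made with the SMART-seq v4 kit and libraries made with NexteraXT, and per the submitters' processing notes reads were aligned with STAR to mm10. The authors deposited 1 table of RPKM values for 11366 genes, per the file headers. The counter, annotation and gene lengths: not given in the sources used here. Depth is unknown, so no counting interval is given. Gene symbols stored as dates (15) were restored from their Entrez identifiers.

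Values were analysed as log2(RPKM + 1), which understates changes of low genes. Genes at 1 RPKM or more in at least 3 libraries were tested (10482). A limma 3.58.1 model (R 4.3.3) took all 11 libraries together, each group having its own mean, with eBayes and a mean trend, and Benjamini-Hochberg adjusted p under 0.05 was called. The script was tested on simulated data. Catalytic ratios, taken as log2 with 1 added to each RPKM, were compared by two-sided exact permutation over libraries. No set test was run.

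The members and lists were chosen with earlier results of these data known. Values per library are given for the catalytic subunits, the highest and lowest member, every called member, and the 4 of lowest unadjusted p in NFF and in SFB against Control (2 in SFB against NFF). Each pathway list gives, for SFB against NFF, its called genes or, with none, the 2 of lowest p, except 1 gene that is not reported here. Psme2b, Nfe2l1, Nfe2l2 and the genes at an unadjusted p under 0.05 in the other comparisons were named besides, after their values were seen. The alternatives covered pseudocounts, filters, scalings, eBayes settings, array weights, fits of only the groups compared, a replicate block and each library left out. A covariate for dividing cells and a fit without 3 libraries were added after seeing the data.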

Additional observations from a re-analysis of the deposited data

Results flagged for a closer look

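SFB 4 stood apart from the other 3 SFB libraries in 3 members, by Dixon's test for a single far value at the 95% level. Psmd2 was at 78.1 RPKM in SFB 4 against 48.0 to 52.0 in the others, Psmd3, a lid subunit, at 44.6 against 27.1 to 29.5, and Psmd5, an assembly chaperone, at 11.6 against 6.77 to 7.40. In all, 78 groups of 4 libraries were examined and 3 were marked, where chance marks about 1 in 20. SFB 4 was the library farthest from its group mean over all tested genes, with a root mean square deviation of 0.43 on the log2 scale. It had the smallest share of its summed RPKM in its 10 highest genes (7.98%, against 10.3% to 15.9% in the other libraries). It held the lowest value of every absorptive enterocyte, goblet, tuft and enteroendocrine marker, and the highest of Olfm4, Mki67, Top2a, Pcna and Ccnb1. Lgr5 and Cd44 were highest in SFB 3, and the Paneth markers were lowest in SFB 2. Whether this make-up went with the members' levels in SFB 4 was not tested.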

How the results depend on the processing

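Depth is unknown, and 3 or 4 libraries a group limit what could be called. Of the settings of single members, 5 of 250 in NFF against Control turned in sign, 17 of 275 in SFB against Control and 1 of 275 in SFB against NFF, none of them in a called value (smallest limma adjusted p 0.476). The causes were not tested. Pseudocounts, the absence of a filter and the other eBayes settings left the number of members called at 0, 0 and 5.

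In NFF against Control (0 genes called), 40 genes were called with array weights, 1 with only the groups compared, 22 without the 3 farthest libraries, 14 with the dividing-cell covariate and 0 to 8 with one library left out (8 without SFB 4). Psmd9 stood at -0.0099 with array weights, -0.040 without the 3 farthest libraries and -0.040 to 0.10 with one library left out. The log2 ratio Psmb7 over Psmb10 was -0.0036 with a pseudocount of 0.1 and -0.24 to 0.14 with one library left out.

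In SFB against Control (21 genes called), 11 genes were called with the stricter filter, 1948 with array weights (4 members), 1 with only the groups compared, 95 without the 3 farthest libraries, 177 with the covariate and 7 to 94 with one library left out (7 without SFB 2, 94 without SFB 4). Scaling to the summed RPKM gave a members' median of 0.35 and log2 ratios of the summed RPKM of 0.33 for 20S and 0.44 for 19S, and raised the share of calls that were higher to 77.4%, from 13 of 21. The same scaling raised it in SFB against NFF to 63.7%, from 329 of 769, and brought the median of all genes to 0.07, 0.20 and 0.13 in the 3 comparisons, from -0.01, 0.01 and 0.02. Psmb5 stood at -0.0017 with median ratio scaling, -0.19 without the 3 farthest libraries, -0.12 with the covariate and -0.11 to 0.19 with one library left out. In the same last 3 settings Psmb7 stood at -0.22, -0.066 and -0.056 to 0.22, and Psmb2 at -0.22, -0.027 and -0.026 to 0.25. Psmb6 stood at -0.049 and Psmc1 at -0.0067 without the 3 farthest libraries. Psmb7 over Psmb10 was -0.33 to 0.046 with one library left out.

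In SFB against NFF (769 genes and 5 members called), 8 members were called after scaling to the summed RPKM, 18 with quantile normalization (1187 genes), 28 with array weights (4720 genes), 2 without the 3 farthest libraries, 0 with the covariate (median 0.13, Psmb5 at -0.11) and 0 to 7 with one library left out (240 to 994 genes, 240 without NFF 2).

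With the replicate block, 0 genes were called in SFB against Control, where Psmb5 stood at -0.0091, and 335 genes and 0 members in SFB against NFF, the 5 members having adjusted p of 0.0608 to 0.103 by limma. Deviations of same-numbered libraries correlated at -0.173 and -0.277 in NFF against Control, 0.201 and 0.668 in SFB against Control and -0.301 to 0.0277 in SFB against NFF, and not every library correlated best with its own number, so the numbers were not taken as pairs.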
